A study of Mus musculus with 30 samples.

Results

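Neurons of the female brain use 1 of the X chromosomes that they carry, either the one from the mother (Xm) or the one from the father (Xp), and the comparison here asks how gene expression in sorted Xp cells differed between old and young mice. The members were the 10 samples labelled Xp that also carry an age, 5 old and 5 young, of 30 samples in the series. In both ages the mice were females on a C57BL/6J background with a Cre-activated reporter at the Hprt locus of each X chromosome, and Cre recombinase under the synapsin 1 promoter switched the reporters on. Cells in which Xp was active made tdTomato and cells in which Xm was active made GFP, so reporter colour and parent of the X cannot be told apart. Old and young are the words of the labels, which give no age in months. Hippocampi of several mice were pooled into each sample, enriched for neurons on a density gradient and sorted by fluorescence, and a sample is therefore a pool and not an animal. RNA was amplified with a SMART-Seq v4 kit, which makes full-length cDNA from little input and does not mark the strand, so genes that overlap on opposite strands share reads. The values are normalised counts, gene counts divided by 1 size factor per sample, and the Xp samples held between 25968024 and 27948060 reads in listed genes. Each age was deposited in a table of its own, which means that age and any difference in how the tables or their samples were made cannot be told apart.

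In the ageing brain, microglia, the resident macrophages, are known to take up a state marked by genes for lipid handling, phagocytosis and adhesion, often called disease-associated. Antigen-presenting molecules of class I, which are found on nearly all cells, and of class II, which are found on professional antigen-presenting cells, are regulated by interferon. Complement proteins tag targets for uptake, and small numbers of T cells enter the old brain. Oligodendrocytes, the myelinating cells, arise throughout life from precursors through a short newly formed stage, and sterol synthesis serves myelin.

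Old Xp samples held more RNA of 4 disease-associated microglial genes, 3 class II genes, complement C4b, the lymphocyte receptor gene Il2rb and the matrix genes Lum and Mfap5, and less RNA of 8 genes that include Fads1, Pdk2 and Bdh1. Gpnmb, the class II genes, Il2rb, Lum, Mfap5, Fads1, Pdk2 and Bdh1 were each not called in some fits that left out 1 sample. With limma on log2 of the normalised count plus 1, 19017 genes were tested and 42 were called (adjusted p-value under 0.05), 34 with higher and 8 with lower values in old samples. These are 0.221% of all genes tested, 0.179% for the higher and 0.0421% for the lower direction. An unadjusted p-value under 0.05 was held by 16.4% of all genes, 8.88% with higher and 7.52% with lower values in old samples, against which the counts at that level in gene groups below are to be read. Differences are on the log2 scale, where 1 is a doubling, and the median of all genes was -0.01. In 41 of the 42 called genes the 5 old and 5 young values did not overlap, a pattern that 4.53% of all genes showed (2.26% with old above young, 2.27% with old below). The calls and this pattern come from the same values, so the pattern is a description and not separate support. The number of calls depended on the samples, from 10 without old sample 2 to 213 without old sample 1, and on the method. EdgeR called 0.121% of genes higher and 0.0316% lower, DESeq2 3.18% and 2.52%, limma with a microglial score as covariate 1.64% and 1.38%, with a choroid plexus score 1.5% and 1.15%, with all 20 samples 0.35% in all (21 of the 42 among them), and without young samples 1 and 2 1.06% and 2.57%. Under limma 9 genes were called in the full set and also whenever any 1 of the 10 samples was left out, among them Clec7a, Spp1, C4b, Naalad2, Klk6, Cyp4f18, Cst7 and 1810041L15Rik.

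The cell-type markers of these samples, labelled as neurons, were examined first. On a per-length scale (TPM, computed from recovered reads and exon length), the median marker of 20 autosomal microglial genes lay between 317 and 574 in old samples and between 302 and 752 in young ones. The median of 10 neuronal genes, Snap25, Syt1, Syn1 and Rbfox3 among them, lay between 21.3 and 37.4 in old and between 19.4 and 54.4 in young samples, and that of 10 oligodendrocyte genes between 487 and 812 in old and between 261 and 882 in young samples. Neuronal markers were present and lower per length than those of microglia and oligodendrocytes in every sample, so the samples are called by their sort, Xp, and not by a cell type. Young samples 1 and 2 stood apart from the other 8 on the first principal component, which held 38.9% of the variance. Summed counts of 9 ependymal and choroid plexus genes were 949093, 629890.0, 152963, 59477 and 37734 in young samples 1 to 5 and 313248, 90507, 78989.9, 107177 and 280627 in old samples 1 to 5. Young samples 1 and 2 had the highest of these sums and the lowest summed microglial genes (137157 and 135561, against 211466 to 297210.0 in the other young samples). Without these samples limma called 202 genes higher and 487 lower, the 42 genes among them, and each count of calls in a gene group below is given without them where it moved by more than 1.5 times. In bulk samples, fewer cells of a type and less RNA per cell cannot be told apart.

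**Figure D1:**
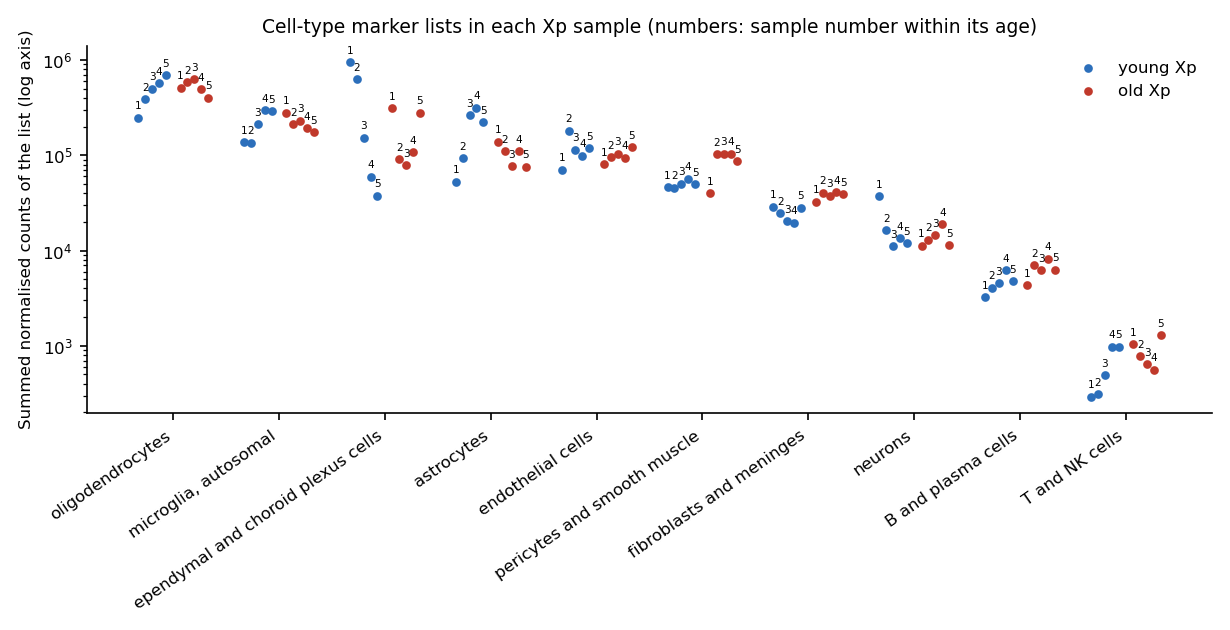
Summed normalised counts (log axis) of 10 cell-type marker lists in each Xp sample, young in blue and old in red, with the sample's number above its point. Young samples 1 and 2 had the highest sums of ependymal and choroid plexus genes (949093 and 629890.0) and old sample 1 the lowest sum of pericyte and smooth muscle genes among the old samples (40085).

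Among microglial genes, the disease-associated set rose in part. Of its 24 genes, 4 were called higher (Clec7a, Spp1, Cst7 and Gpnmb) and none lower, the old values of 10 lay wholly above the young ones, and the median difference was 0.52 against -0.01 for all genes tested. Without young samples 1 and 2, 7 were called higher and 1 lower, and the median was 0.40. Clec7a, which encodes the glucan receptor dectin of myeloid cells (chr6:129461591-129472779, minus strand, GRCm38), read 1014, 1169, 1271, 835 and 1142 normalised counts in old samples 1 to 5. In young samples 1 to 5 it read 218, 199, 166, 292 and 242. The lowest old sample was well above the highest young one, and the mean rose from 224 ± 47.4 to 1086 ± 168 (SD, n = 5 pools in each age), a log2 difference of 2.29 ± 0.16 (SE here and below; adjusted p = 0.000334). Clec7a was not called by limma with all 20 samples in the fit (2.31, adjusted p = 0.0744, the highest over its alternatives, of which DESeq2 gave the lowest, 5.17e-34). Spp1, which encodes the secreted adhesion protein osteopontin (chr5:104435118-104441050, plus strand), read 3203, 4469, 3787, 3934 and 3634 in the old and 859, 774, 1403, 913 and 1035 in the young samples. Its values were wholly apart, by 1.95 ± 0.15, adjusted p = 0.000432. For Cst7, a cystatin that inhibits cysteine proteases (chr2:150570415-150578944, plus strand), old samples read 252, 210.4, 286, 203 and 210.0 and young samples 52.9, 49.4, 71.1, 75.1 and 106. Both ages were again apart, by 1.74 ± 0.22, adjusted p = 0.00996. Gpnmb, a transmembrane glycoprotein of lysosomes, read 1066, 1090.3, 1305, 1131 and 1323 in old samples and 759, 611, 462, 452 and 750.2 in young ones, a difference of 0.99 ± 0.16, adjusted p = 0.0411. It was the smallest of the 4 changes on the log2 scale, and was not called without old sample 2, 3, 4 or 5 or young sample 2, 3 or 4, each left out alone.

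The other 20 members of this set were not called. Lpl (lipoprotein lipase) differed by 0.94 ± 0.17, adjusted p = 0.0653, Cd22 (a sialic acid-binding receptor) by 1.49 ± 0.28, adjusted p = 0.0655 and Itgax (the integrin CD11c) by 1.65 ± 0.34, adjusted p = 0.0794, each with old values wholly above the young. Axl, a receptor for apoptotic cells, differed by 0.48 ± 0.18, adjusted p = 0.21, with overlapping ages. For Apoe, the apolipoprotein that is the most read member of the set, the old samples read 137521, 122584, 112991, 127165 and 146431 and the young 106715, 111084, 167295, 161817 and 167635. Apoe values of the old samples lay inside the range of the young ones, and the difference was -0.12 ± 0.17, adjusted p = 0.749. None of 20 homeostatic microglial genes and none of the 20 autosomal markers of microglia was called by limma, none had an unadjusted p-value under 0.05, and edgeR and DESeq2 called none either. Their median differences were -0.02 and 0.13, and without young samples 1 and 2 -0.24 (2 homeostatic genes called lower) and -0.29. P2ry12, the purine receptor of resting microglia, differed by -0.32 ± 0.23, adjusted p = 0.501, Tmem119 by -0.20 ± 0.25, adjusted p = 0.721 and Csf1r, the receptor that microglia need to survive, by -0.04 ± 0.24, adjusted p = 0.943. The state genes above stood beside overlapping summed levels of the microglial markers, 175778 to 280412 in old and 135561 to 297210.0 in young samples.

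The next 3 called genes are in no list and were put together after their values were seen. Ctse, the endosomal protease cathepsin E, read 30.4, 52.6, 71.5, 43.1 and 67.4 in old and 10.4, 10.3, 9.01, 9.14 and 13.5 in young samples, a low level that was 2.18 ± 0.27, adjusted p = 0.00996 higher. Cyp4f18, a cytochrome that inactivates leukotriene B in neutrophils and macrophages (chr8:71988482-72009626, minus strand), read 109, 121, 152, 155 and 150.3 in old and 34.3, 19.5, 45.1, 29.4 and 28.1 in young samples. The ages were wholly apart, by 2.13 ± 0.23, adjusted p = 0.0035. Hcar2, a receptor for hydroxybutyrate and niacin, rose from 211 ± 79.5 to 624 ± 103 (difference 1.64 ± 0.27, adjusted p = 0.0411). Of 10 neutrophil and monocyte markers, 5 were tested and all 5 lay above 0, with a median of 1.69 that was 0.27 without young samples 1 and 2. The median was 0.95 without young sample 1 alone and 2.69 without young sample 3 alone. With edgeR it was 0.27 and with DESeq2 0.28. Young sample 3 had the highest summed count of these markers among all 10 samples (999). None of the 5 was called by limma (1 had an unadjusted p-value under 0.05, edgeR called 0 and DESeq2 1).

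Of 12 genes of class II antigen presentation, 3 were called higher, H2-Aa, H2-Ab1 and H2-Eb1, which encode the alpha and beta chains that hold the peptide, and the median difference of the 12 was 0.58 (0.33 without young samples 1 and 2, with the same number called). They lie close together on chromosome 17 (H2-Ab1 chr17:34257689-34269419, H2-Aa chr17:34282744-34287823 and H2-Eb1 chr17:34305867-34316674). The bases before the start sites of H2-Aa and H2-Eb1 are shown because both genes were called higher. H2-Ab1, which was called with them, is not shown. Class II promoters are known for a Y box, whose core is an inverted CCAAT, and the 8 letters CTGATTGG that hold it stand in capitals, 51 and 62 bases before the start. The letters were searched on both strands, and 3.16% of the 32851 promoter windows of 150 bases in the RefSeq table (GRCm38.p6) hold them. The windows are chr17:34287824-34287973 on the minus strand and chr17:34305717-34305866 on the plus strand, written 5′ to 3′. A match is a description of the sequence and not a measured binding site.
H2-Aa: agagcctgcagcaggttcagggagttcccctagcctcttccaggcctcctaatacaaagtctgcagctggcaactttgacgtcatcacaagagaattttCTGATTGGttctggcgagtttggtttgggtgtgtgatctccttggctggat
H2-Eb1: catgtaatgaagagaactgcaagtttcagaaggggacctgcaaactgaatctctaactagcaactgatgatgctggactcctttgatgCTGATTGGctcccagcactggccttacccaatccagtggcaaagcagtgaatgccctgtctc

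H2-Aa read 2019.8, 2829.9, 2369.5, 1793 and 5629 in old samples 1 to 5 and 638, 618, 654, 1256 and 555 in young samples 1 to 5. Old sample 5 was the highest of the old and young sample 4 the highest of the young, and the ages did not overlap (difference 1.91 ± 0.31, adjusted p = 0.0411). H2-Ab1 read 4719, 5916, 5412, 3709.9 and 12241 in the old and 1346, 1302, 1560.5, 2714 and 1428 in the young samples (1.87 ± 0.30, adjusted p = 0.0411). H2-Eb1 read 1568, 1734, 1696, 1323 and 3723 in the old and 457, 473, 515, 745 and 430.3 in the young samples (1.86 ± 0.26, adjusted p = 0.0193). Old sample 5 and young sample 4 were again the highest of their ages in both genes. All 3 stayed called without old sample 5 and without young sample 4, and none was called without old sample 2, old sample 3, young sample 2 or young sample 3, each left out alone. Without old sample 4, young sample 1 or young sample 5, 1 of them was called, and without old sample 1, 4 members were. EdgeR called 1 of the 12 (H2-Eb1), and limma none after scaling to microglial genes or with all 20 samples in the fit. Cd74, the invariant chain that guides class II to endosomes, was 1.49 ± 0.29, adjusted p = 0.0659 and not called, with old values from 12727 to 29228 and young values from 3901 to 9664. Ciita, the master activator of class II genes, was low in both ages, 56.6 ± 37.5 in old and 45.5 ± 18.4 in young samples (0.19 ± 0.45, adjusted p = 0.86).

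Class I and interferon genes lay above 0 as a group without a call. All 14 class I genes had positive differences, with a median of 0.60, the old values of 6 lay wholly above the young, and limma called none (10 had an unadjusted p-value under 0.05, all higher, edgeR called 0 and DESeq2 6 higher), or 1 higher without young samples 1 and 2. H2-K1, a classical class I chain, was 0.59 ± 0.17, adjusted p = 0.138, H2-Q7, a non-classical one, 1.27 ± 0.24, adjusted p = 0.0659 and Nlrc5, the activator of class I genes, 0.90 ± 0.20, adjusted p = 0.0794. All 25 interferon-response genes were likewise above 0, from 0.08 to 1.49 with a median of 0.29. None was called by limma, while 10 had an unadjusted p-value under 0.05, all higher, edgeR called 0 and DESeq2 2. The highest, Zbp1, a sensor of foreign nucleic acid, read 92.1, 72.7, 73.4, 63.8 and 327 in old and 30.1, 44.2, 38.1, 30.5 and 35.4 in young samples. Old sample 5 alone was far above the others (1.49 ± 0.40, adjusted p = 0.122). A called gene outside the lists, F830016B08Rik, shared its high value in old sample 5, with 88, 148, 105, 124 and 279 in old and 37.4, 27.8, 26, 20.3 and 35.4 in young samples (2.21 ± 0.31, adjusted p = 0.0193).

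In the complement cascade, C4b was called. It encodes complement C4, which is cleaved early in the classical pathway and binds covalently to its target, and it has a near-identical copy, C4a, with which its reads may be split (chr17:34728380-34743882, minus strand). C4b read 9637, 13108, 8906, 9239 and 10873 in old samples 1 to 5 and 1925, 1469, 2912, 1888 and 3333 in young samples 1 to 5. The lowest old value was far above the highest young value, and the mean rose from 2305 ± 781 to 10352 ± 1711 (difference 2.22 ± 0.21, adjusted p = 0.00185). Of the 15 complement genes tested this was the only one called, and the median difference was 0.38, with old values of 5 genes wholly above the young. Without young samples 1 and 2, 3 were called, and without old sample 1, 2 were. Uncalled members included Serping1, the inhibitor of the first component (1.15 ± 0.23, adjusted p = 0.0794), C3, on which all pathways meet (1.46 ± 0.40, adjusted p = 0.128), and C2 (1.08 ± 0.25, adjusted p = 0.0942). C1qa, a subunit of the recognition protein that microglia make, was 0.20 ± 0.26, adjusted p = 0.713. Serpina3n, a serine protease inhibitor known from reactive astrocytes and from oligodendrocytes in disease, read 927, 1057, 1131, 1028 and 1003 in old and 473, 424, 388, 573 and 617 in young samples. Its ages were wholly apart, by 1.07 ± 0.13, adjusted p = 0.00996.

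Among genes of lymphocytes, Il2rb was called and was in no fixed list. Il2rb, the beta chain of the receptors for several interleukins, read 79.6, 157, 77.2, 84.4 and 167 in old and 17.6, 11.3, 20.03, 21.3 and 32.3 in young samples (2.39 ± 0.32, adjusted p = 0.0182). Old samples 2 and 5 had the highest Il2rb, which was not called without either of them. Of 14 T and NK cell markers, 5 were in both tables and could be tested, and limma called none (3 had an unadjusted p-value under 0.05, all higher, edgeR called 0 and DESeq2 1), with a median of 0.70. Cd3g, a chain of the T cell receptor complex, read 37.7, 34.4, 51.5, 36.6 and 82.8 in old and 6.23, 4.11, 26, 26.4 and 34.4 in young samples (1.57 ± 0.55, adjusted p = 0.194). Summed over the 5 markers, old samples read 1041, 783, 643, 563 and 1289.7 and young samples 292, 313, 489.8, 977 and 979, and young samples 1 and 2 were the lowest of all. Of 10 B and plasma cell markers, 8 were tested and all 8 lay above 0, with a median of 1.15 that was 0.69 without young samples 1 and 2 and 0.45 among members with a mean of at least 50. None was called by limma (6 had an unadjusted p-value under 0.05, edgeR called 0 and DESeq2 1). Igkc, the constant part of the kappa light chain, was uneven in both ages, with 152, 1140.0, 319, 1570.4 and 537 in old and 218, 76.1, 106, 880.4 and 36.5 in young samples (1.93 ± 0.84, adjusted p = 0.285).

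**Figure D2:**
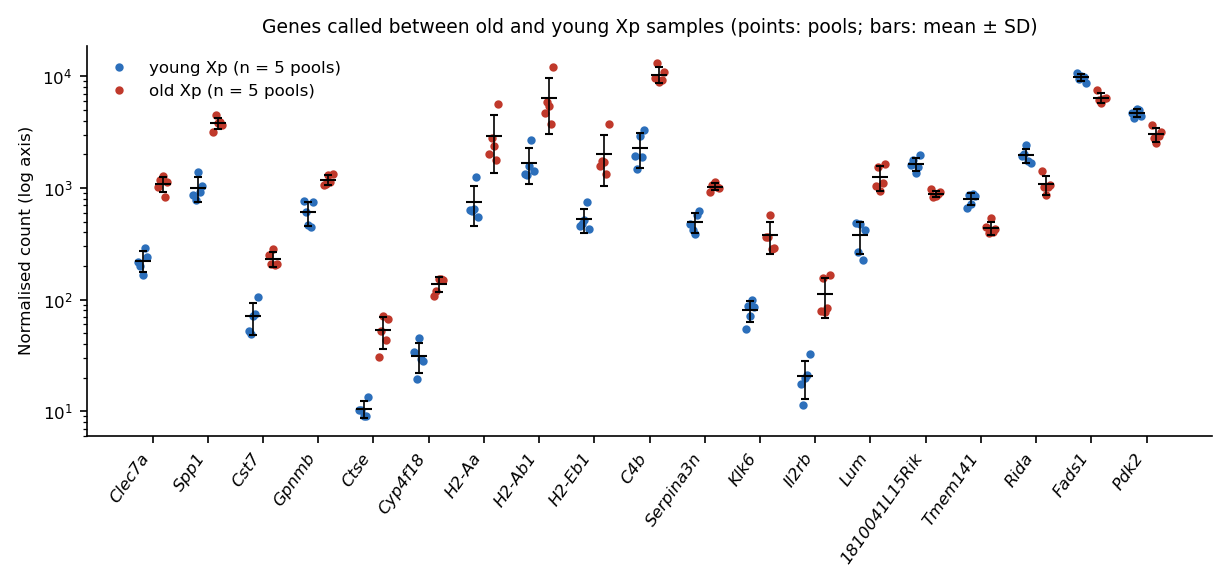
Normalised counts (log axis) of 19 called genes in the young (blue) and old (red) Xp samples, with 1 point per pool and bars for the mean ± SD of 5 pools. In every gene shown the points of the ages do not overlap, from Ctse (means 10.5 and 53) to Fads1 (means 9774 and 6428).

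All 10 fibroblast and meningeal markers lay above 0, with a median of 0.83, and 1 was called, Lum, which encodes the collagen-binding proteoglycan lumican. Without young samples 1 and 2, 4 were called and the median was 1.10, and 4 were called without old sample 1, 3 without young sample 1 and 2 without young sample 5. Lum was not called without old sample 2, 4 or 5 or young sample 2, each left out alone, nor after scaling to microglial genes or with all 20 samples in the fit. It read 1051, 1546, 949.7, 1103 and 1634 in old and 487, 269, 477, 226 and 423 in young samples, wholly apart by 1.77 ± 0.24, adjusted p = 0.0193. Dcn (decorin, another such proteoglycan) was 1.66 ± 0.29, adjusted p = 0.057 and Col3a1 (a fibrillar collagen) 1.14 ± 0.24, adjusted p = 0.0794, neither called. Of 20 genes of collagens and basement membrane limma called none, with a median of 0.26 (6 had an unadjusted p-value under 0.05, all higher, edgeR called 0 and DESeq2 4), and limma called 4 higher without young samples 1 and 2, 2 without old sample 1, 1 without young sample 1 and 2 without young sample 5. Called genes outside the lists that are known from mesenchymal cells, gathered after their values were seen, were Mfap5, a microfibril protein (1.39 ± 0.23, adjusted p = 0.0422), Mrc2, a collagen uptake receptor (1.06 ± 0.17, adjusted p = 0.0411), Sfrp4, a secreted Wnt antagonist (1.13 ± 0.18, adjusted p = 0.0411), Mmp23, a metalloproteinase (1.08 ± 0.19, adjusted p = 0.0498), and Mgp, an inhibitor of calcification. Mgp was the only called gene whose ages overlapped. It read 2556, 4564, 4375, 4319 and 4586 in old and 1825, 2579.6, 1664, 1312 and 1370.2 in young samples, with old sample 1 inside the young range (1.23 ± 0.21, adjusted p = 0.0469). With each sample left out alone, Mfap5 stayed called only without old sample 1 or young sample 1. Mgp stayed called only without old sample 1 or young sample 2, and Mmp23 only without old sample 1. Mrc2 and Sfrp4 stayed called only without old sample 1 or young sample 5. Neither edgeR nor limma with all 20 samples called Mfap5, Mmp23 or Mgp. On the per-length scale the median fibroblast marker lay between 52.9 and 89.1 in old and between 18.4 and 30.0 in young samples, without overlap. Of the 10 markers only Lum was called, and the part of the marker levels in the result of the mesenchymal genes above was not tested. Pericyte and smooth muscle markers, all 10 above 0, had a median of 0.83 with none called (limma; 7 had an unadjusted p-value under 0.05, edgeR called 0 and DESeq2 6). Limma called 7 of them higher without old sample 1 and 2 with the choroid plexus score as covariate. Their summed counts were 40085, 103117, 104118, 103858 and 87065 in old and 45989, 45814, 50204, 56862 and 49659.5 in young samples, where old sample 1 alone lay below the young range.

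Among genes of the oligodendrocyte lineage and of astrocytes the differences ran both ways. The called genes Klk6 and Abca8a are in no list, and over all 10 samples limma called no member of the oligodendrocyte lists. Klk6, a trypsin-like protease that mature oligodendrocytes secrete (chr7:43824499-43832030, plus strand), read 366, 364, 575, 286 and 288 in old and 55, 88.4, 72.1, 98.5 and 86.5 in young samples. Old sample 3 was the highest, the ages were wholly apart, and the difference was 2.19 ± 0.23, adjusted p = 0.00236. Abca8a, a lipid transporter, rose from 1003 ± 269 to 2276 ± 348 (1.21 ± 0.19, adjusted p = 0.0399). Of 10 mature oligodendrocyte markers limma called none (1 had an unadjusted p-value under 0.05, and neither edgeR nor DESeq2 called any), with a median of 0.06 that was -0.35 without young samples 1 and 2. Mbp, a structural protein of myelin, was 0.30 ± 0.25, adjusted p = 0.573. The 10 genes of newly formed oligodendrocytes had a median of -0.48, 8 below 0, and the old values of 3 lay wholly below the young. None was called by limma, 6 had an unadjusted p-value under 0.05, all lower, edgeR called none and DESeq2 5, and without young samples 1 and 2 limma called 1 lower. Among them, Fyn, a kinase of myelination, read 1670.0, 1398, 1456, 1347 and 1733 in old and 3834, 5402, 2295, 2354 and 6819.7 in young samples (-1.32 ± 0.28, adjusted p = 0.0794). Its young values were widely spread and all above the old. Gpr17, a receptor of the transition from precursor to oligodendrocyte, read 6847, 5775, 6711, 5409 and 5475 in old and 19400.0, 22148, 8572, 7354 and 18609.7 in young samples (-1.20 ± 0.29, adjusted p = 0.102). Both genes were lowest among the young in samples 3 and 4.

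All 10 astrocyte markers lay below 0, with a median of -0.65 and none called by limma (2 had an unadjusted p-value under 0.05, edgeR called none and DESeq2 1 lower). Summed astrocyte counts were 53014, 94045, 263830.0, 316576 and 224250.0 in young samples 1 to 5 and 139238, 110503, 77371, 109879 and 75956 in old samples 1 to 5. Young sample 1 lay below every old sample, and young samples 3, 4 and 5 above every old sample. Without young samples 1 and 2 all 10 were called lower, with a median of -1.31. Aqp4, the water channel of astrocyte endfeet, was -0.71 ± 0.45, adjusted p = 0.448 over all 10 samples. Naalad2, a glutamate carboxypeptidase (chr9:18321951-18402995, minus strand), is in no list and moved the other way. It read 1034, 1242, 1197, 1128 and 994 in old and 496, 528, 551, 644 and 503 in young samples, with a small spread in both ages (1.04 ± 0.10, adjusted p = 0.00194). Of 11 genes of neuroblasts and immature neurons none was called by limma (3 had an unadjusted p-value under 0.05, edgeR called none and DESeq2 2 lower), with a median of -0.30. Without young sample 1 alone the median was -0.13, and without young samples 1 and 2 limma called 1 lower. Neurod1, a transcription factor of newborn granule neurons, read 49.2, 13.4, 13.3, 23.4 and 46.2 in old and 509, 86.4, 79.1, 124 and 52.1 in young samples. All old values were below all young values, and the young spread was set by sample 1 (-2.19 ± 0.60, adjusted p = 0.126). The median of 10 general neuronal genes was -0.20, and 0.37 without young samples 1 and 2, with none called by limma, edgeR or DESeq2 and none at an unadjusted p-value under 0.05. The 8 excitatory neuron markers had a median of -1.20 (6 below 0), and -0.18 without young samples 1 and 2. Limma called none (1 was higher and 3 were lower at an unadjusted p-value under 0.05, edgeR called 0 and DESeq2 2 lower). The 8 inhibitory neuron markers tested had a median of -0.41, and 0.45 without those samples, with none called by limma, edgeR or DESeq2 and none at an unadjusted p-value under 0.05.

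Of the 8 genes called lower, 1810041L15Rik, which the annotation names Shisal1 (chr15:84379203-84447097, minus strand), read 975, 833, 853, 887 and 914 in old and 1596, 1781, 1362, 1536 and 1958 in young samples (-0.87 ± 0.10, adjusted p = 0.0076). Tmem141, a small membrane protein, read 446, 392.1, 539.7, 401 and 431 in old and 666, 869.8, 722, 889 and 851 in young samples (-0.85 ± 0.12, adjusted p = 0.0224). In both genes the highest old sample was below the lowest young one. Rida, which clears reactive imines formed from amino acids, fell from 1959 ± 295 to 1076 ± 209 (-0.87 ± 0.14, adjusted p = 0.0411). Fads1, a desaturase of polyunsaturated fatty acids, read 7586, 6143, 5745, 6237 and 6431 in old and 10755, 9494, 10068, 9809 and 8746 in young samples (-0.61 ± 0.10, adjusted p = 0.0411). Pdk2, which restrains entry of pyruvate into the mitochondrial cycle, fell from 4702 ± 379 to 3034 ± 429 (-0.64 ± 0.11, adjusted p = 0.0446), and Bdh1, a ketone body dehydrogenase, from 1158 ± 172 to 653 ± 110.2 (-0.83 ± 0.14, adjusted p = 0.0469). Erg28, a scaffold of sterol synthesis, had the smallest called change (-0.51 ± 0.09, adjusted p = 0.0469). The last, ENSMUSG00000051107, has no name in the annotation used and was -1.001 ± 0.17, adjusted p = 0.0469. With each sample left out alone, only 1810041L15Rik of these 8 stayed called in every fit. Pdk2 and Erg28 stayed called only without old sample 1, and Rida and Bdh1 only without old sample 1 or young sample 5. Fads1 stayed called only without old sample 1, young sample 1 or young sample 5. EdgeR called neither Pdk2 nor Bdh1.

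In the wider sterol list most members lay below 0 without a call. Of 21 genes of cholesterol and fatty acid synthesis, 18 lay below 0, the median was -0.43, and the old values of 4 lay wholly below the young. Limma called none, 12 had an unadjusted p-value under 0.05, all lower, edgeR called none and DESeq2 7, and without young samples 1 and 2 limma called 11 lower and without old sample 1, 2 lower. Sqle, which makes squalene epoxide, read 3171, 2906, 2762, 3203 and 2720.1 in old and 3478, 3803, 3960.3, 4925 and 4064 in young samples (-0.45 ± 0.10, adjusted p = 0.0854), and Hmgcs1, which acts early in the pathway, 7313, 6662, 6178, 7109 and 6798 and 7622, 8599, 9183, 12059 and 9826 (-0.46 ± 0.12, adjusted p = 0.113). All 22 nuclear genes of oxidative phosphorylation lay below 0, with a median of -0.29, none called by limma, 6 at an unadjusted p-value under 0.05, edgeR 0 and DESeq2 2 called. That median was -0.02 without young samples 1 and 2.

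**Figure D3:**
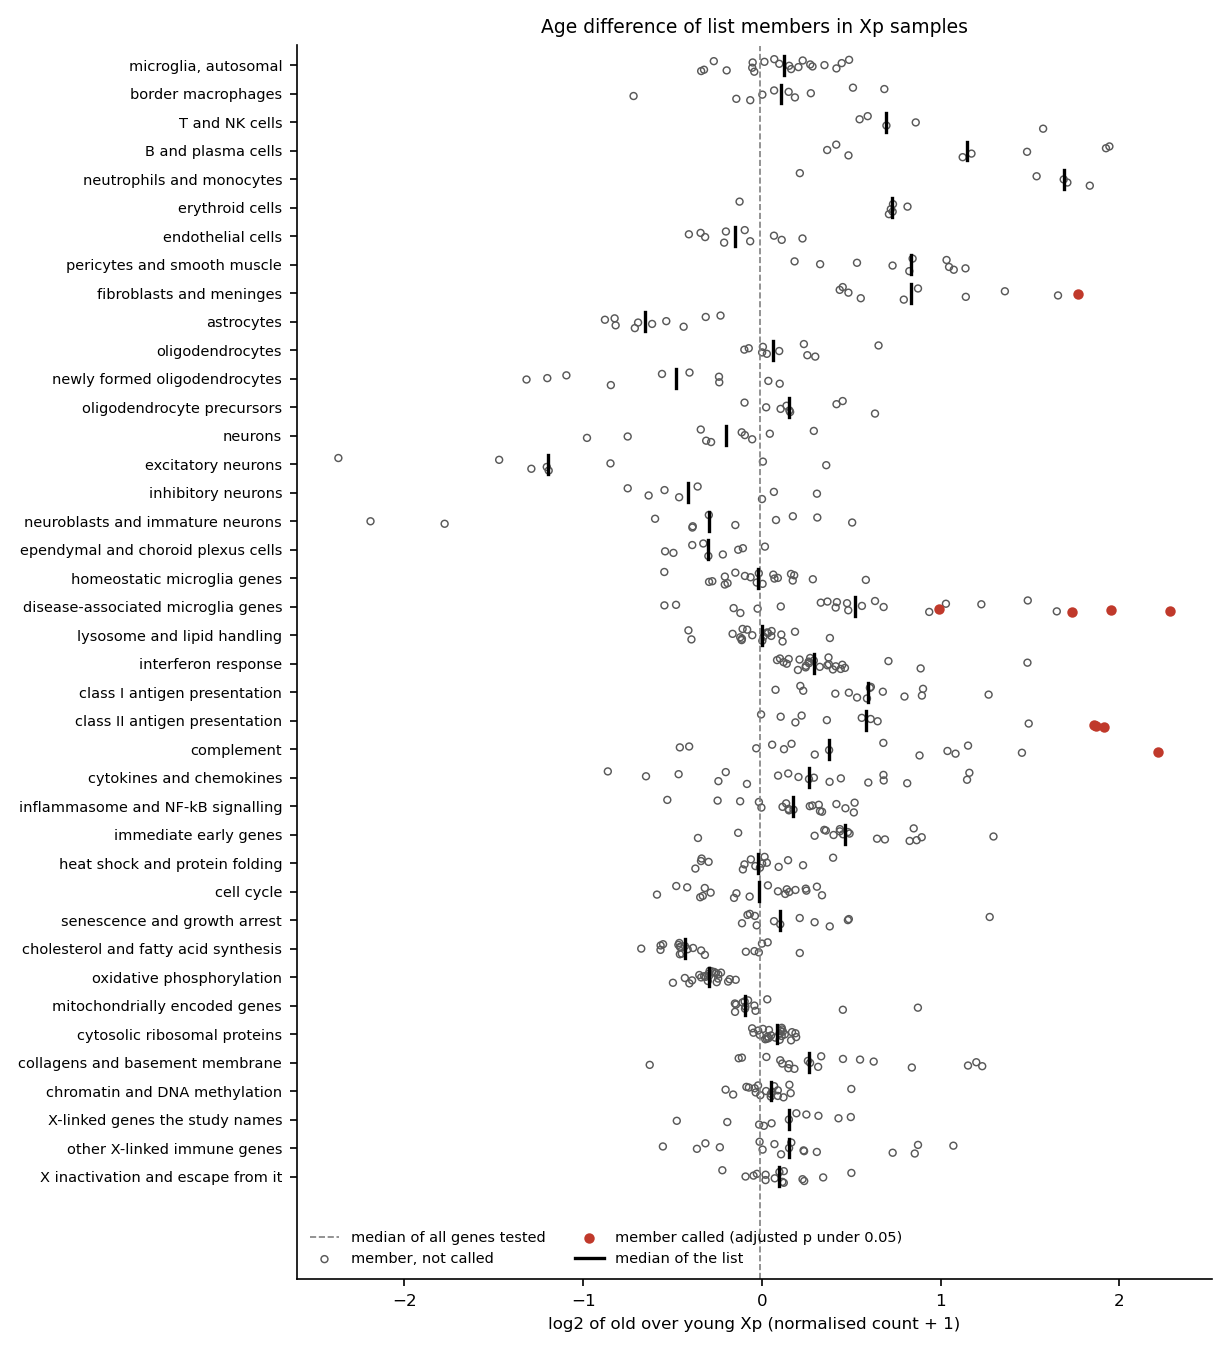
Difference between old and young Xp samples (log2, normalised count plus 1) for the members of all 40 gene lists, with called members in red, other members as open circles, the median of each list as a black bar and the median of all genes as a dashed line. Called members are 4 disease-associated microglial genes, 3 class II genes, C4b and Lum, and the list medians run from -1.20 in excitatory neurons to 1.69 in neutrophils and monocytes, neither with a member called.

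Further called genes, all higher in old samples, were Inmt, a methyltransferase of small amines (1.93 ± 0.28, adjusted p = 0.0255), Nupr1, a stress-induced nuclear protein (1.17 ± 0.19, adjusted p = 0.0411), Serpind1, the thrombin inhibitor heparin cofactor (1.11 ± 0.18, adjusted p = 0.0411), Ces2e, a carboxylesterase (1.97 ± 0.32, adjusted p = 0.0411), and Lgr5, a receptor of the Wnt pathway (0.91 ± 0.15, adjusted p = 0.0469). Pdlim1, a cytoskeletal adaptor, was 0.90 ± 0.15, adjusted p = 0.0422, Lypd6b, of the family of toxin-like receptor modulators, 1.05 ± 0.18, adjusted p = 0.0453, and the unnamed transcripts Gm16233 and Gm12981 1.83 ± 0.26, adjusted p = 0.0207 and 1.11 ± 0.19, adjusted p = 0.0469. The gene ENSMUSG00000029378 is called Mcub in the deposited tables and Areg, a growth factor of the EGF family, in the annotation by its identifier. It read 51.3, 96.6, 74.4, 65.6 and 77.1 in old and 13.5, 10.3, 13, 29.4 and 21.9 in young samples (2.06 ± 0.30, adjusted p = 0.0255).

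The X chromosome, on which the sort is based, contributed none of the 42 called genes. Of 648 X-linked genes tested limma called 0, with 45 higher and 42 lower at an unadjusted p-value under 0.05 (13.4%, against 16.4% of all genes), edgeR called 0 and DESeq2 17 higher and 11 lower. Limma called 7 higher and 13 lower without young samples 1 and 2, and 7 higher and 8 lower with the microglial score as covariate. Old values lay wholly above the young in 10 X-linked genes (1.54%) and wholly below in 12 (1.85%), against 2.26% and 2.27% of all genes, and their median difference was -0.04. Xist, the RNA of the inactive X, read 9130.2, 8294, 8297, 8276 and 8072 in old and 8931, 7438, 7394, 7662 and 7287 in young samples (0.12 ± 0.09, adjusted p = 0.489). Hprt, whose locus carries the reporters, was uneven among young samples, with 1398, 1129.9, 618, 661 and 639 against 926, 876, 690.4, 758 and 930.5 in the old (-0.01 ± 0.23, adjusted p = 0.984). Young samples 1 and 2 had the highest Hprt of all 10. Ddx3x, a helicase that escapes X inactivation, was wholly apart but not called, from 6479 ± 411 to 8217 ± 482 (0.34 ± 0.08, adjusted p = 0.0992).

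The study names 11 X-linked genes, which had a median of 0.15, 8 above 0, and a median of -0.31 without young samples 1 and 2. None was called by limma, edgeR or DESeq2, and none had an unadjusted p-value under 0.05. Sash3, an adaptor of lymphocytes, read 618, 557, 718, 539 and 494 in old and 361, 318, 635, 979.9 and 885 in young samples (0.01 ± 0.30, adjusted p = 0.989). Tlr7, the endosomal receptor for single-stranded RNA, read 1627, 1298, 1251, 1000.4 and 652 in old and 749, 742, 1164, 1558 and 1802 in young samples (-0.02 ± 0.30, adjusted p = 0.985). Cysltr1, a leukotriene receptor, read 273, 152, 254, 259 and 186 in old and 206, 241, 271, 303 and 245 in young samples (-0.19 ± 0.19, adjusted p = 0.621). In all 3 the old values lay mostly within the young range, and in Sash3 and Tlr7 young samples 1 and 2, which were lowest in microglial markers, were also the lowest young samples. The others were Was (0.50 ± 0.35), Elf4 (0.43 ± 0.26), Tlr13 (0.05 ± 0.33), Xlr3b (0.25 ± 0.40), Trpc5 (0.19 ± 0.25), Tasl (0.32 ± 0.29), Dipk2b (-0.48 ± 0.29) and Xlr. Of further X-linked immune genes, 17 were tested, 12 above and 5 below 0, with a median of 0.15. Limma called none (2 were higher and 2 lower at an unadjusted p-value under 0.05, edgeR called 0 and DESeq2 2 higher). Without young samples 1 and 2 limma called 1 higher and the median was -0.01, and 1 was called higher without old sample 1 or young sample 1 alone. Among these genes, Cybb, the catalytic part of the phagocyte oxidase, was 0.86 ± 0.23, adjusted p = 0.118.

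Whether the age difference of Xp cells differs from that of Xm cells of the same pools was tested as an interaction in a limma model of all 20 aged samples. Of 19133 genes none was called, 373 had an unadjusted p-value under 0.05 (1.95%), and edgeR called none with 398 at that level. With each pool as a block, since Xp and Xm were sorted from the same pool, limma called none with 971 at that level. No age difference can therefore be called particular to Xp cells. The differences in Xp and Xm were 2.31 ± 0.59 and 2.39 ± 0.59 for Clec7a, 1.97 ± 0.30 and 1.89 ± 0.30 for Spp1, and 2.24 ± 0.32 and 2.54 ± 0.32 for C4b. These and the following estimates come from the fit without the pool block, which treated Xp and Xm of a pool as independent. Some estimates stood further apart. From limma, Klk6 was 2.21 ± 0.20 in Xp and 3.34 ± 0.20 in Xm (Xp minus Xm -1.12 ± 0.28), Cyp4f18 2.15 ± 0.29 and 0.82 ± 0.29 (1.33 ± 0.42), Ctse 2.20 ± 0.42 and 0.80 ± 0.42 (1.41 ± 0.59) and Gm12981 1.13 ± 0.27 and 0.24 ± 0.27 (0.89 ± 0.38). In the interaction without the pool block these are the only 4 of the 42 with an unadjusted p-value under 0.05, and each had an adjusted p-value that rounds to 1. In the same limma fit Sash3 was 0.03 ± 0.39 in Xp and 1.66 ± 0.39 in Xm (-1.63 ± 0.55, adjusted p = 1). The study describes Sash3 expression from Xm as nearly undetectable, so its Xm difference is a ratio of low counts.

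**Figure D4:**
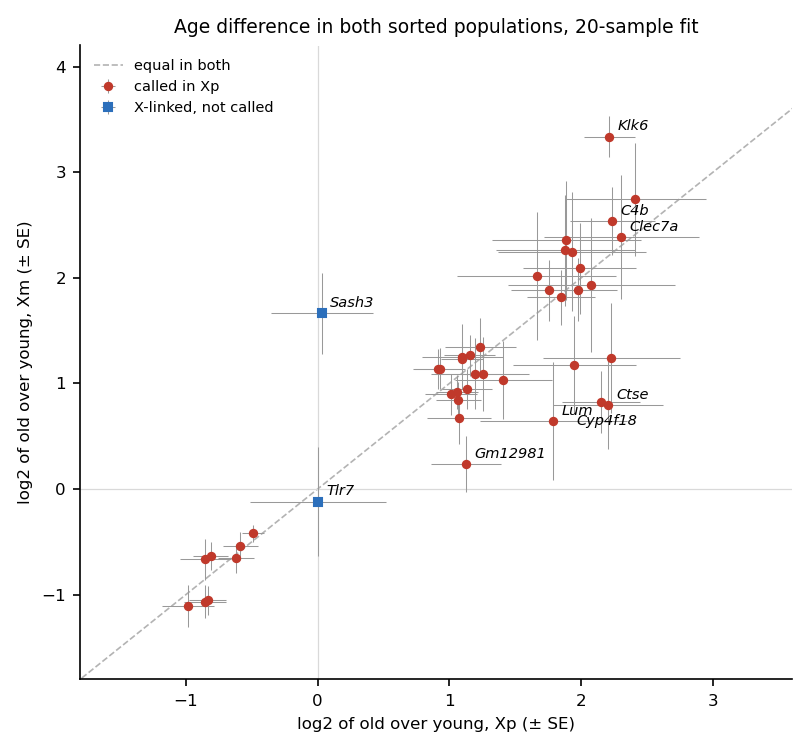
Age difference (log2 of old over young, ± SE) in Xp samples on the horizontal axis and in Xm samples on the vertical axis, from the 20-sample fit, for 41 of the 42 genes called in Xp (red) and for Sash3 and Tlr7 (blue). Klk6 lies above the line of equality (2.21 and 3.34) and Ctse below it (2.20 and 0.80).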

How the data were processed

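RNA sequencing values of 20 sorted samples, 5 in each of Xp old, Xp young, Xm old and Xm young, were used, and groups came from the sample labels. The other 10 samples, which carry no age, were not used here. The authors trimmed reads, mapped them with STAR (2.5.2b) to GRCm38 and counted them over genes with featureCounts (Subread 1.5.2). The deposited values are a signal, gene counts that the authors divided by 1 size factor per sample in a table for each age. The tables also hold the authors' log2 fold changes, p-values and adjusted p-values for Xp against Xm, which were not used. In all 20 columns 100% of values were whole multiples (within 0.1) of the worth of 1 read, and the whole reads were recovered from them. The old table held 22387 genes and that of the young samples held 19345 (1 partial last row was dropped), with 19133 shared. Rows are in identifier order and the young table ends within a row, so 2148 genes of the old table lie past its end and 1106 others lie within its range without a row there. No listed gene summed to less than 97.6 over the 10 columns of the old or 98.8 over those of the young table.

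Recovered reads were joined on gene identifier and divided by median-of-ratios size factors computed over the 10 Xp samples together. Genes with a mean of at least 10 were tested with limma (3.58.1; R 4.3.3; lmFit, eBayes with trend and robust) on log2 of the value plus a pseudocount of 1, two-sided, with Benjamini-Hochberg adjustment over all genes tested, and a gene was called below 0.05. Fold changes are on this log2 scale and understate changes of low genes. The interaction used all 20 samples and age, active X and their product as terms. The script was tested on simulated data. Alternatives included edgeR (4.0.16) and DESeq2 (1.42.0) on recovered reads, other scalings, filters and pseudocounts, marker scores as covariates and each sample left out. EdgeR called 23 genes higher and 6 lower. Reads were amplified and carry no molecular identifiers, so they overstate the number of molecules.

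Genes were named by a rule: for each direction, the 10 most significant called genes whose ages do not overlap (all 8 for the lower ones), up to 6 with the largest change at a mean of at least 100, members of the gene lists, genes the study names, and up to 6 genes listed in 1 table only. The remaining called genes (such as Hcar2, Inmt, Mrc2 and Areg) were named after their values were seen, and some genes that the rule names are not reported here. The members and lists were chosen with earlier results of these data known. Coordinates are from GENCODE on GRCm38, which matched 99.7% of identifiers. For 13 identifiers whose deposited symbol belongs to another gene in GENCODE, the GENCODE symbol was used, and promoter sequences are from RefSeq.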

Additional observations from a re-analysis of the deposited data

Results flagged for a closer look

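In 102 groups of 5 samples, 41 of the called genes and 10 marker lists in each age, a sample was set apart where its gap to the nearest other exceeded 0.71 of the range of the group. There were 14 such samples. About 1 in 20 groups would hold one if values were normally distributed. These are counts, and the groups share samples and are not independent, so the number cannot be set against that rate. Class II genes held 6 of them. Old sample 5 read 5629 for H2-Aa (other old samples 1793 to 2829.9), 12241 for H2-Ab1 (others 3709.9 to 5916) and 3723 for H2-Eb1 (others 1323 to 1734). Young sample 4 read 1256 for H2-Aa (other young samples 555 to 654), 2714 for H2-Ab1 (others 1302 to 1560.5) and 745 for H2-Eb1 (others 430.3 to 515).

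Among other called genes, Klk6 was high in old sample 3 (575, others up to 366), Serpind1 in old sample 2 (1093, others up to 881), Inmt in young sample 3 (159, others up to 83.4) and Lypd6b in young sample 5 (122, others up to 81). Mgp was low in old sample 1 (2556, others from 4319), and ENSMUSG00000051107 in old sample 5 (598, others from 819.8). Summed pericyte and smooth muscle markers were low in old sample 1 (40085, others from 87065) and summed neuronal markers high in young sample 1 (37049.9, others up to 16461).

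Genes listed in the table of only 1 age entered no comparison, and those named here lie within the range of identifiers that both tables cover. Of those only in the old table, the highest means over the 5 old Xp samples were 136 for Igkv4-55, 135 for Ighg2b and 90.6 for Igkv12-41, all of antibody chains, 113 for Nkg7, a granule protein of cytotoxic lymphocytes, 64.5 for Ms4a4b, a T cell membrane protein, and 65.7 for A530053G22Rik. The antibody genes were uneven, Igkv4-55 ranging from 0 to 520.4 and Ighg2b from 10.4 to 622, while Nkg7 ranged from 68.2 to 259.5. Of those only in the young table, the highest means over the 5 young Xp samples were 98.8 for Igkv8-21, 37.1 for Avp, the hormone vasopressin, 33.1 for Gm26684, 24.6 for AI847159, 23.3 for F630028O10Rik and 23.1 for Lrit1.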

How the results depend on the processing

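The 42 calls (34 higher, 8 lower) were 8 (8 and 0) after scaling to microglial genes, among them Clec7a, Spp1, Cst7, C4b, Klk6, Il2rb and Hcar2, 67 (45 and 22) with all 20 samples in the fit, which kept 21 of the 42 and lost Clec7a, Il2rb, Lum and the class II genes among others, 1084 (605 and 479) with DESeq2, 574 (312 and 262) with a microglial score as covariate and, by alternatives chosen after seeing the data, 504 (285 and 219) with a choroid plexus score as covariate and 689 (202 and 487) without young samples 1 and 2. In the last 3 and with DESeq2 all 42 were called. TMM scaling, deposited values without joint rescaling, edgeR, both other pseudocounts and both other filters gave totals within 1.5 times of 42. Leaving out 1 sample gave 10 to 213 calls (9 to 160 higher, 1 to 53 lower). The cause of these shifts was not tested.

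The sample numbers are shared between the ages but do not pair the samples: same-number correlations of deviations ran from -0.24 to 0.06, and 0 of 5 numbers correlated best with their own. With the number as a replicate block, limma called 0 genes (0 higher, 0 lower; 2904 at an unadjusted p-value under 0.05), so 0 members of every list.

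Members called higher among disease-associated, class II, complement and fibroblast genes (4, 3, 1 and 1) were 12, 4, 5 and 6 with DESeq2, 12, 5, 6 and 4 with the microglial covariate, 12, 4, 4 and 4 with the choroid covariate, 7, 3, 3 and 4 without young samples 1 and 2, 3, 0, 1 and 0 after scaling to microglial genes or with all 20 samples, 3, 1, 1 and 1 with edgeR, and 2 fibroblast members without joint rescaling. With 1 sample left out they ran from 3 to 6, 0 to 4, 1 to 2 and 0 to 4. No named gene that was called changed sign under any alternative. The interaction stayed at 0 calls under TMM scaling, edgeR, a mean of at least 50 and the replicate block, here the pool from which Xp and Xm were both sorted. Lists with no call also had some: with the microglial and the choroid covariate, limma called 10 and 7 sterol genes and 2 and 1 newly formed oligodendrocyte genes lower, and 4 and 3 collagen genes, 3 and 3 class I genes and 3 and 3 immediate early genes higher. With the microglial covariate alone, 3 astrocyte genes were called lower and, of the autosomal microglial markers that make up that score, 2 higher and 3 lower. Some of the other lists gained 1 or 2 calls under a covariate.

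With 5 pools in each age, of uneven marker composition, the spread between pools limits the precision of each difference. Depth was similar in all 10 pools and limits mainly genes near the mean of 10, where counting error is largest.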

Other observations

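Of the T and NK cell markers, 8 were listed in the old table and not in the young one, and so have old values only. Over the 5 old Xp samples, Cd3e ranged from 14 to 90.7 and Cd3d from 7.58 to 54, both chains of the T cell receptor complex, Cd8a from 6.8 to 26.5 and Cd8b1 from 21.4 to 53.1, the coreceptor of cytotoxic T cells, Trbc2, a receptor constant region, from 19.9 to 60.8, and Gzmb, a killing protease, from 19.9 to 43.4. Old sample 5, the highest in class II, was also the highest in Nkg7, Cd3e and Cd3d.

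Immediate early genes, which are induced within minutes by activity or by dissociation of tissue, lay above 0 in 16 of 18 members, with a median of 0.47 and with old values of 3 wholly above the young. Limma called none (9 had an unadjusted p-value under 0.05, all higher, edgeR called 0 and DESeq2 3), and without young samples 1 and 2 limma called 2 higher and 1 lower and the median was 0.14. Cytosolic ribosomal protein genes, 24 in number, had a median of 0.09 and genes of the cell cycle -0.02.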
